A study of Homo sapiens with 8 samples.

Results

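The microRNA (miRNA) hairpins MIR423 and MIR3605 each give 2 mature strands, a 5p arm and a 3p arm. The 4 arms, hsa-miR-423-5p, hsa-miR-423-3p, hsa-miR-3605-5p and hsa-miR-3605-3p, were taken by name from the 2026 entries of the miRNA count table. The hairpins were chosen by their measured read counts in the same CD44v6-positive and CD44v6-negative samples, since miR-3605-3p and miR-423-5p are among the miRNAs that differ most between them. The levels in both populations are therefore given as a description, with no test.

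The cells were HCT116, an established human colorectal cancer line, grown as spheroids in serum-free medium with growth factors in low-attachment flasks. They were sorted by flow cytometry with an antibody against CD44v6, an isoform of the cell-surface receptor CD44 that includes a variable exon and is used to mark tumour cells with stem-cell traits. The sorted cells were CD44v6-positive or CD44v6-negative, both labelled HCT116 with no drug or resistant derivative named for either, and dead cells were removed by propidium iodide. The table holds 2 samples per group, each joining 2 of the 8 sequencing entries, and as no label names separate cultures, the spread within a group may be technical. One cell line was studied, and in sorted bulk RNA fewer cells of a type and less RNA per cell cannot be told apart.

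A miRNA hairpin is cut from a longer primary transcript by Drosha in the nucleus and again by Dicer in the cytoplasm, which leaves a duplex of the 5p and 3p arms. As a rule 1 strand is kept by an Argonaute protein and guides it to messenger RNAs that pair with its seed, bases 2 to 8, while the other strand is degraded. Both arms of miR-423 are found in many tissues and are often used as reference miRNAs in quantitative PCR. miR-3605 is a little studied hairpin in the gene of the Polycomb protein PHC2.

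The mature sequences below are shown because each strand has its own seed, so a change in which arm is kept changes the set of possible targets. They are from RefSeq on GRCh38.p14, where all 4 names matched, and capitals mark the seed. The last line is the antisense relative described in the text that follows.
miR-423-5p: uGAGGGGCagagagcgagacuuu
miR-423-3p: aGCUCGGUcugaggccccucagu
miR-3605-5p: uGAGGAUGgauagcaaggaagcc
miR-3605-3p: cCUCCGUGuuaccuguccucuag
miR-3184-5p: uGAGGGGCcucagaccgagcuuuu

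All 4 members are 23 bases long. How evenly different strands were captured as reads was not measured, so comparisons between arms below are comparisons of reads. Their seeds all differ. The 5p arms of both hairpins open with the same 5 bases, UGAGG, and are identical at 7 of 23 positions. That opening, searched only at the start of the RNA strand, is held by 26 of the 1807 table entries with a sequence (1.44%), 8 of which are let-7 family members or miR-98. None of the other entries came within 3 mismatches of a member over an aligned stretch of at least 18 bases, and each member's sequence occurs in 1 hairpin of the RefSeq table.

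The only other entry with the seed of a member was miR-3184-5p, which shares the first 8 bases of miR-423-5p. Its hairpin MIR3184 (chr17:30117086-30117160, minus strand) lies opposite MIR423, and its 3p arm is the exact reverse complement of miR-423-5p. In the negative samples miR-3184-5p had 4 and 1 reads, and in the positive samples 0 and 3. miR-3184-3p had 0 reads in all 4 samples. A count of 0 allows up to 3 reads, which is 0.381 reads per 1000000 in the library (CPM) in the deepest library and 19.4 CPM in the shallowest. The 6902 to 26287 reads of miR-423 per sample therefore stood beside at most 4 reads for either strand from the other side of the locus.

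Both hairpins were put to the description that they lie in exons of protein-coding genes, with GENCODE release 29 on GRCh38. MIR423 (chr17:30117079-30117172, plus strand) lies within NSRP1, the gene of a splicing regulator of nuclear speckles. Of 17 annotated NSRP1 transcripts 14 span at least a base of the hairpin. The whole hairpin is exonic in only 1 of them, NSRP1-214, whose first exon (chr17:30116992-30117332, untranslated) begins 87 bases before it. In 2 others the first exon begins inside the hairpin, and in the remaining transcripts that span it the hairpin is intronic.

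MIR3605 (chr1:33332393-33332492, minus strand) goes against the description. In the 9 PHC2 transcripts that span it, 88 of its 100 bases are intronic and only the last 12 are exonic, so it straddles the 3′ splice site before a coding exon of 130 bases (chr1:33332275-33332404). Both mature arms are wholly intronic. The miR-3605-3p arm (chr1:33332405-33332427) ends on the last base of the intron, and its final AG is the AG that closes that intron, which is 1685 bases long in the coding transcripts that span it. The hairpin is printed because of this position, with the 3p arm at bases 66 to 88 in capitals and the exon following it directly.
MIR3605: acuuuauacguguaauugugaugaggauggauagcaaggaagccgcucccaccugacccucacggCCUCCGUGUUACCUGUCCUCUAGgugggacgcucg

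Depth differed widely between the libraries, which matters for each value that follows. The CD44v6-negative samples held 7880631 and 4592278 miRNA reads and the CD44v6-positive samples 919802 and 154481, a 51.0-fold span in which both positive libraries were the shallower ones. All 4 members passed the filter on low counts, as did 570 of the 2026 entries. The filter asks for a minimum CPM in 2 samples, which far fewer reads reach in the shallow positive libraries. Some rare entries were therefore tested only through the positive samples, which limits the counts and medians of tested miRNAs given below. With edgeR's quasi-likelihood test 0 of the 570 (0%) had an adjusted p under 0.05, while 174 had an unadjusted p under 0.05. DESeq2 called 51 of 603 miRNAs (8.46%) and limma-voom 4 of 570 (0.702%). With 2 samples against 2, an exact permutation test of a single value cannot go below a p of 0.333. Levels below are CPM scaled by TMM, a factor that evens out differences in composition between libraries, and intervals in brackets are exact 95% Poisson intervals that cover counting error only.

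miR-423-5p was at 1367 CPM (1335 to 1399) and 1356 CPM (1325 to 1387) in CD44v6-negative samples 1 and 2. It was at 8019.7 CPM (7838 to 8204) and 28230.2 CPM (27483 to 28992) in CD44v6-positive samples 1 and 2. Both positive samples lay above both negative ones, and the positive samples also differed from each other by 3.52-fold, far beyond counting error. The group means were 18125 ± 14291 and 1361 ± 7.77 CPM (SD, n = 2), a ratio of 13.3, and the fitted log2 difference was 3.73 ± 0.71 (SE). Without CD44v6-positive sample 2 that difference was 2.79. The small spread of the negative samples holds for TMM scaling: before it their levels were 906 and 1628 CPM, against 8080.0 and 35066 CPM in the positive samples.

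By rank within its own library, which needs no scaling, miR-423-5p was the 76th and 66th most abundant miRNA in CD44v6-negative samples 1 and 2. It was the 26th and the 8th in CD44v6-positive samples 1 and 2. In the last of these it made up 3.51% of all miRNA reads, against 0.0906% in CD44v6-negative sample 1.

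The other strand of the duplex, miR-423-3p, differed less between the groups. It was at 2698 CPM (2653 to 2743) and 3410.4 CPM (3362 to 3460) in the negative samples, and at 9201 CPM (9007 to 9399) and 7739 CPM (7350 to 8143) in the positive samples. The groups did not overlap, and within the positive group the order was opposite to that of the 5p arm, with sample 1 the higher. The means were 8470.1 ± 1034 and 3054 ± 504 CPM (SD, n = 2), a ratio of 2.77, and the log2 difference was 1.47 ± 0.43 (SE). Its rank was 60 and 46 in the negative and 23 and 18 in the positive samples.

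miR-3605-3p, the arm that ends at the splice site, was at 10.5 CPM (7.93 to 13.7) and 11.1 CPM (8.46 to 14.2) in the negative samples, from 55 and 61 reads. In the positive samples it was at 185 CPM (158 to 214) and 208 CPM (149 to 284), from 171 and 40 reads. Each positive sample was at least 16.7 times the higher negative sample, and samples of 1 group differed by less than their counting intervals. The means were 196 ± 16.9 and 10.8 ± 0.380 CPM (SD, n = 2), a ratio of 18.2, with a log2 difference of 4.18 ± 0.59 (SE). Before TMM scaling the levels were 6.98 and 13.3 CPM in the negative and 186 and 259 CPM in the positive samples.

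miR-3605-5p overlapped between the groups. It was at 32.7 CPM (28.0 to 38.0) and 10.7 CPM (8.14 to 13.8) in the negative samples, from 171 and 59 reads, so these samples differed by 3.06-fold. It was at 65.8 CPM (50.3 to 84.6) and 26.1 CPM (8.46 to 60.8) in the positive samples, from 61 and 5 reads. The means were 45.9 ± 28.1 and 21.7 ± 15.6 CPM (SD, n = 2) and the log2 difference was 1.15 ± 0.81 (SE). That difference became 2.24 when CD44v6-negative sample 1 was left out, and 0.156 when CD44v6-positive sample 1 was.

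**Figure D1:**
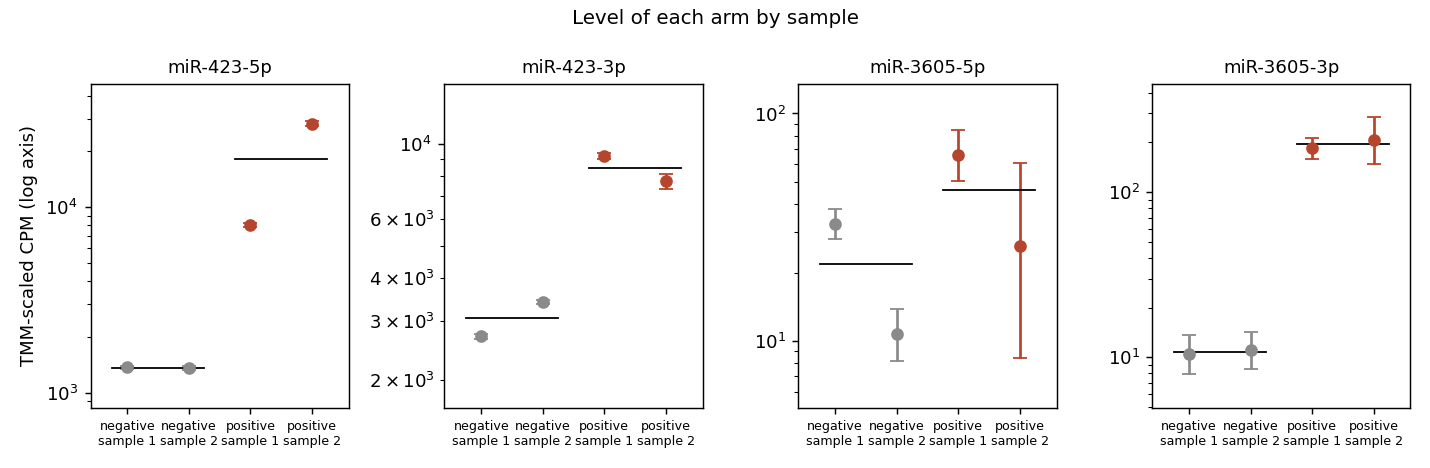
TMM-scaled CPM on a log axis of miR-423-5p, miR-423-3p, miR-3605-5p and miR-3605-3p in the 2 CD44v6-negative samples (grey) and the 2 CD44v6-positive samples (red); bars are exact 95% Poisson intervals for counting error and black lines are group means. In 3 of the 4 panels both red points lie above both grey points, and miR-3605-5p overlaps.

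Of the 4 members, 3 thus had groups that did not overlap with the positive samples higher, a pattern that 24.9% of the 570 tested miRNAs also showed. The members were picked with this contrast in view, so nothing is read from the count. By size of the log2 difference from the highest, miR-3605-3p was 10th, miR-423-5p 14th, miR-423-3p 101st and miR-3605-5p 122nd of the 570.

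Within each library the order of the members changed. In CD44v6-negative sample 1 it was miR-423-3p, miR-423-5p, miR-3605-5p and miR-3605-3p, with no neighbours' counting intervals touching. CD44v6-negative sample 2 had the same order at the top, but both miR-3605 arms lay within each other's intervals. In CD44v6-positive sample 1 miR-423-3p still led and miR-3605-3p stood above miR-3605-5p. In CD44v6-positive sample 2 the order within each hairpin was the reverse of that in CD44v6-negative sample 1, with miR-423-5p above miR-423-3p and miR-3605-3p above miR-3605-5p.

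The share of a hairpin's reads on each arm compares strands of the same library and is free of scaling between libraries. For miR-423 the 5p arm held 33.6% of the reads (exact 95% binomial interval 33.0 to 34.3) in CD44v6-negative sample 1 and 28.4% (27.9 to 28.99) in CD44v6-negative sample 2, from 21243 and 26287 reads. It held 46.6% (45.8 to 47.3) in CD44v6-positive sample 1 and 78.5% (77.5 to 79.4) in CD44v6-positive sample 2, from 15959 and 6902 reads. The 3p arm thus had more reads in 3 samples. The 5p arm had more only in CD44v6-positive sample 2, with 3.65 reads for each read of the 3p arm. The mean shares were 62.5% ± 22.6 in positive and 31.0% ± 3.66 in negative samples (SD, n = 2).

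For miR-3605 the arms went the other way. The 5p arm held 75.7% of the reads (69.5 to 81.1) in CD44v6-negative sample 1 and 49.2% (39.9 to 58.4) in CD44v6-negative sample 2, from 226 and 120 reads. It held 26.3% (20.7 to 32.5) in CD44v6-positive sample 1 and 11.1% (3.71 to 24.1) in CD44v6-positive sample 2, from 232 and 45 reads. The groups did not overlap, and the intervals of the positive samples did not reach those of the negative ones, but the negative samples differed from each other by more than CD44v6-negative sample 2 differed from CD44v6-positive sample 1. The mean shares were 18.7% ± 10.7 in positive and 62.4% ± 18.7 in negative samples (SD, n = 2).

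**Figure D2:**
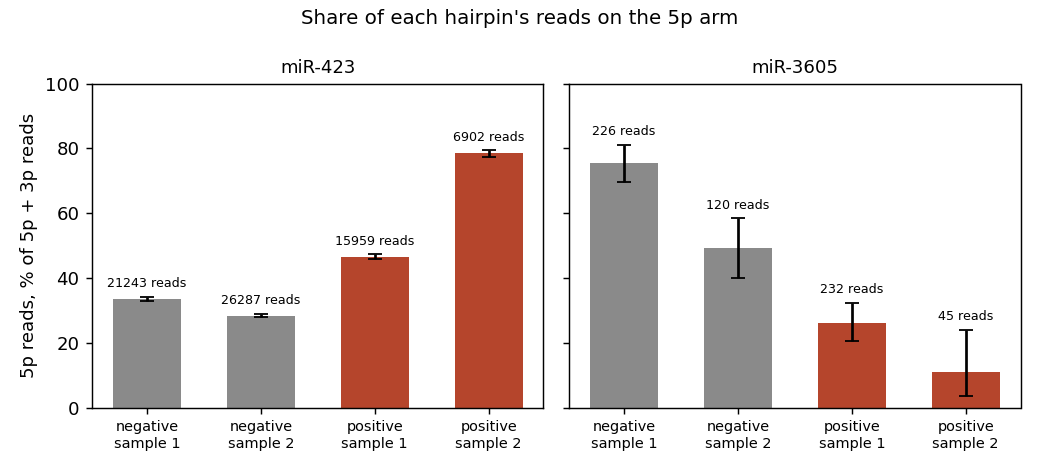
Percent of the 5p plus 3p reads of miR-423 (left) and miR-3605 (right) that fell on the 5p arm in each sample, with exact 95% binomial intervals for counting error and the number of reads above each bar. The miR-423 bars are higher in the positive samples, at 46.6% and 78.5%, and the miR-3605 bars lower, at 26.3% and 11.1%.

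As a log2 ratio of 5p to 3p reads, with 0.5 reads added to each, miR-423 was at -0.98 and -1.33 in the negative and at -0.20 and 1.87 in the positive samples. The difference of the means was 1.99, which was 0.958 without CD44v6-positive sample 2 and 3.02 without CD44v6-positive sample 1. miR-3605 was at 1.63 and -0.05 in the negative and at -1.48 and -2.88 in the positive samples. The difference was -2.97, and -2.13 without CD44v6-negative sample 1. Of the 5 reads behind the 5p arm of miR-3605 in CD44v6-positive sample 2, each weighs heavily on the last of these ratios.

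Arm ratios that differ between these libraries were common. In 45 hairpins, miR-423 among them, each arm had at least 10 reads in every sample, and miR-3605 missed this minimum. The positive samples had the higher ratio without overlap in 15 of the 45 (33.3%) and the lower one in 16 (35.6%). The median difference was -0.07, with quartiles at -0.92 and 1.24, and miR-423 was the 6th highest. The largest rises were those of miR-193b at 3.82, miR-25 at 3.01 and miR-342 at 2.84. In CD44v6-positive sample 2 their 5p and 3p reads were 12 and 10, 131 and 1301, and 10 and 37. The values of miR-193b and miR-342 thus rest on counts at the minimum. The largest falls were those of miR-18a at -4.19, miR-106b at -2.92 and miR-1307 at -2.70. The more abundant arm by group mean was not the same in both groups in 6 of the 45 hairpins, and miR-423 was 1 of these 6.

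**Figure D3:**
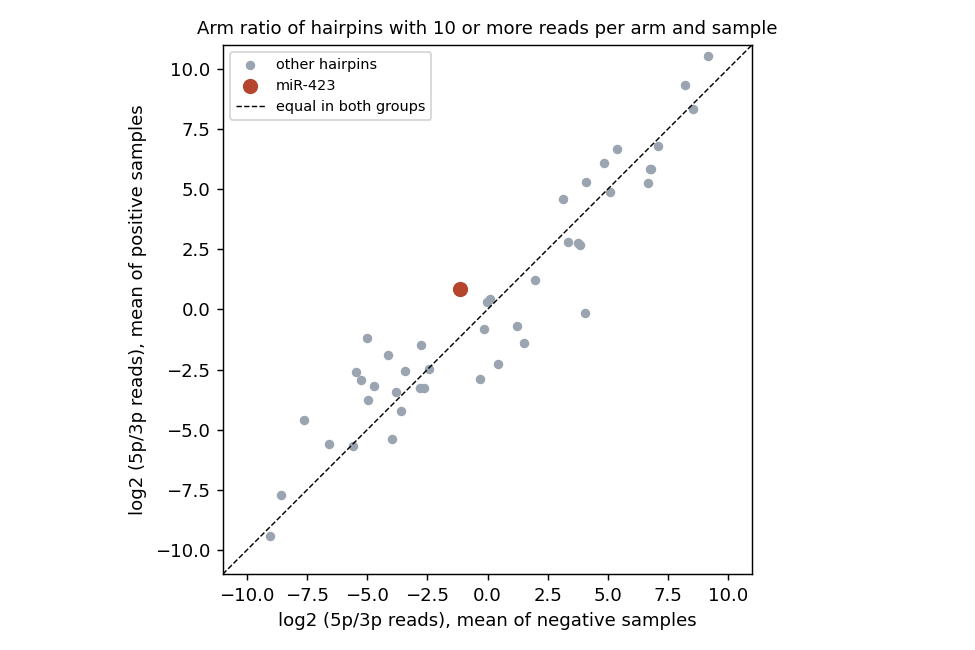
Mean log2 ratio of 5p to 3p reads in the CD44v6-negative samples (x axis) and CD44v6-positive samples (y axis) for miR-423 (red) and the 44 other hairpins with at least 10 reads per arm and sample (grey); the dashed line marks equal ratios. miR-423 lies 1.99 above the line, with grey points at similar distances on both sides.

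Taken as whole hairpins, both arms added, miR-423 gave 0.270% and 0.572% of all miRNA reads in the negative samples and 1.74% and 4.47% in the positive samples. In TMM-scaled CPM the sums were 26595 ± 13257 in positive and 4415 ± 496 in negative samples (SD, n = 2). For miR-3605 the sums were 242 ± 11.2 and 32.5 ± 15.2 CPM. The groups did not overlap for either hairpin, and the ratio of means was 6.02 for miR-423 and 7.46 for miR-3605.

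The raw reads of miR-423-5p were almost level across the libraries, at 7143 and 7477 in the negative and 7432 and 5417 in the positive samples. The highest count was 1.38 times the lowest, where the library totals spanned 51.0-fold. Among the 86 miRNAs with at least 100 reads in every sample this was the smallest such ratio and the only 1 under 2. The next was miR-1246 at 3.88, and the median was 44.9. miR-423-3p, at 14100, 18810, 8527 and 1485 reads, had a ratio of 12.7 and was 12th. miR-3605-3p, with too few reads for that group, had a ratio of 4.28. The minimum of 100 reads leaves out rare entries with level counts, such as miR-155-5p with 4 reads in each library. As the positive libraries were the shallower ones, level reads restate the higher CPM by which miR-423-5p was chosen. Nothing is therefore read from its place among the 86.

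**Figure D4:**
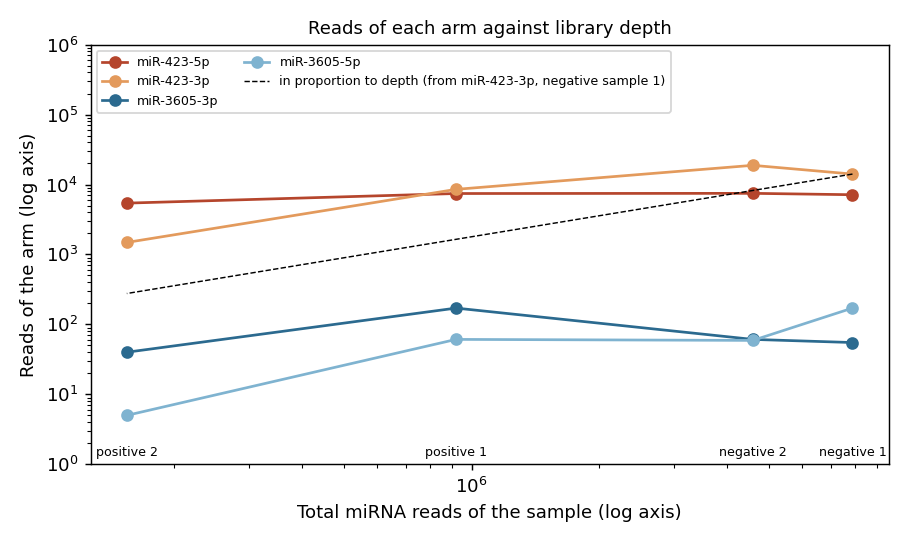
Raw reads of each of the 4 arms (y axis, log) against the total miRNA reads of the sample (x axis, log), from CD44v6-positive sample 2 at the left to CD44v6-negative sample 1 at the right; the dashed line shows reads in proportion to depth. The miR-423-5p line is nearly level, between 5417 and 7477 reads, over the whole range of depth.

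The miRNAs closest to each member were found by the root mean square difference of log2 CPM, centred on the mean of the 4 samples. For miR-423-5p they were miR-6812-3p (0.280), miR-155-5p (0.317), miR-1237-3p (0.378), miR-6777-3p (0.444) and miR-6819-3p (0.449). These are rare miRNAs with 3 to 22 reads per sample, and miR-155-5p had 4 reads in each of the 4 libraries. A level count of few reads becomes a higher CPM in a shallower library, and both positive libraries were the shallower ones. Nothing is therefore read from the likeness of such rare entries. For miR-3605-3p they were miR-6777-3p (0.399), miR-548av-5p (0.470), miR-6735-5p (0.501), miR-1246 (0.515) and miR-6819-3p (0.590). Apart from miR-1246, with 311 to 1206 reads per sample, these were also rare, at 2 to 28 reads, and the same limit holds. miR-423-5p came 6th (0.662). The partner arm of the same hairpin was further away in both cases: miR-423-3p was 88th for miR-423-5p (1.24), and miR-3605-5p was 125th for miR-3605-3p (1.68). Other pairs across the hairpins were also far apart, with miR-423-3p and miR-3605-3p at 1.32 and miR-423-5p and miR-3605-5p at 1.70.

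Since miR-423 is itself a common reference in quantitative PCR, its arms were set against 16 other miRNAs used that way. Most of these had lower values in the positive samples: 2 had positive and 14 negative log2 differences, with a median of -0.49. Their summed CPM without TMM scaling was nevertheless higher there, at 352089 and 346522, against 231212 and 275671 in the negative samples. Over all 570 tested miRNAs 254 were positive and 316 negative, with a median of -0.31. Without overlap 2 of the 16 were higher and 7 lower, beside 142 (24.9%) higher and 197 (34.6%) lower of the 570. The most abundant were miR-92a-3p (1.17 ± 0.39, SE), let-7a-5p (-0.45 ± 0.59), miR-191-5p (-0.21 ± 0.44) and miR-26a-5p (-0.49 ± 0.43).

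The log2 ratio of miR-423-5p to each of the 16 references, from raw reads of the same library, was higher in both positive than in both negative samples in 16 of 16 cases. The difference of group means ran from 2.30 to 5.32 with a median of 3.95. For miR-423-3p it ran from 0.306 to 3.33, without overlap in 14 of 16. For miR-3605-3p it ran from 3.01 to 6.03, without overlap in all 16. For miR-3605-5p, whose own levels overlapped between the groups, it ran from 0.04 to 3.06, without overlap in 12. The 16 ratios of a member share the reads of that member, and 14 of the references had negative log2 differences. The members were also picked with this contrast in view, so nothing is read from these counts.

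Among miRNAs whose hairpin lies wholly in an exon of a protein-coding gene on the same strand, 169 entries besides the miR-423 arms are in the table, of which 33 were tested and 32 had 0 reads in every sample. Of the tested ones 20 had positive and 13 negative log2 differences, with a median of 0.67 against -0.31 over all tested. Without overlap 12 of the 33 were higher and 7 lower, beside 24.9% and 34.6% of all tested. Several of the higher ones were rare and passed the filter only through the positive samples. Examples are miR-6734-5p, with 10 and 5 reads in the negative and 4 and 1 in the positive samples, and miR-6716-3p, with 6, 11, 9 and 1. Nothing is therefore read from the median or the counts of this list. The most abundant were miR-21-5p, in VMP1 (-1.53 ± 0.64, SE), miR-10a-5p, in HOXB4 (-1.56 ± 0.62), miR-197-3p, in GNAI3 (1.62 ± 0.63), and miR-484, in NDE1 (-1.04 ± 0.72). The list was also rich in G and C, with a median GC content of 62.5% in the mature sequence against 50% over all tested miRNAs with a sequence.

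The other miRNAs that open with UGAGG, 24 in the table and 10 tested, had a median of -0.23, with 3 positive and 7 negative values. None of the 10 was higher without overlap and 2 were lower, beside 24.9% and 34.6% of all tested. The most abundant were let-7a-5p, let-7f-5p (-0.36 ± 0.45, SE), let-7g-5p (-0.58 ± 0.62) and let-7b-5p (0.61 ± 0.58).

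GC content moved with the difference between the groups over all miRNAs. The 499 tested miRNAs with a sequence had median log2 differences of -1.27, -0.13 and 0.67 in 3 groups of rising GC content, cut at its tertiles. miR-423-5p and miR-3605-3p are both at 56.5%, miR-3605-5p at 52.2% and miR-423-3p at 65.2%. The 61 other miRNAs of 52 to 57% GC had a median of -0.21 with quartiles at -0.99 and 1.14. Of these 16 were higher without overlap, beside 142 (24.9%) of all 570 tested miRNAs. The 23 others of 64 to 67% GC, the range of miR-423-3p, had a median of 1.45 with quartiles at 0.06 and 2.06. Of these 14 were higher without overlap, beside the same 24.9%. The value of miR-423-3p, 1.47, was close to the median of these 23. After a smooth curve of the difference on GC content was subtracted, the members were at 3.46 (miR-423-5p), 3.90 (miR-3605-3p), 1.16 (miR-3605-5p) and 0.767 (miR-423-3p), so miR-423-3p moved by the most.

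**Figure D5:**
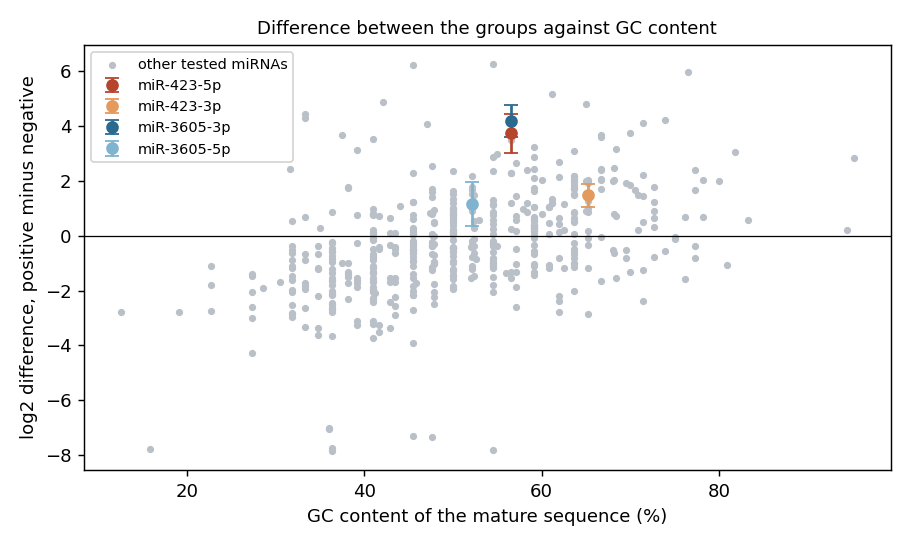
Fitted log2 difference, CD44v6-positive minus CD44v6-negative, against the GC content of the mature sequence for the 4 arms (coloured, bars are 1 SE) and the other tested miRNAs with a sequence (grey). miR-423-5p and miR-3605-3p, at 56.5% GC, lie at 3.73 and 4.18, and the grey points tend upward with GC content.

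Markers of other sources differed between the libraries as well. Epithelial miRNAs, the identity of this line, were all 5 present, at 19921 and 21318 summed CPM without TMM scaling in the negative and 16907 and 16306 in the positive samples. All other summed CPM in this paragraph are also without TMM scaling. Among them miR-141-3p was lower without overlap (-2.41 ± 0.57, SE), miR-200b-3p and miR-200c-3p had negative values, and miR-192-5p (0.80) and miR-194-5p (0.74) positive ones, these last 4 with overlap. The blood list, with 5 of 8 tested and none at 0 in every sample, summed to 2082 and 1697 CPM in the negative and 3814 and 4654 in the positive samples. Of its 5 tested members 4 had positive values and 2 were higher without overlap, beside 24.9% of all tested. These were miR-486-5p (0.67 ± 0.54, SE), the most abundant, and miR-150-5p, with 5 and 1 reads in the positive samples. The sum was mostly miR-486-5p, with 15547, 7107, 3418 and 597 reads. miR-451a and both miR-142 arms overlapped between the groups. miR-122-5p, the defining miRNA of liver and common in serum, had 24, 22, 45 and 117 reads in the same order of samples, or 3.05, 4.79, 48.9 and 757 CPM. miR-122-5p was thus highest in CD44v6-positive sample 2, the shallowest library. miR-423-5p was also highest in that sample, and a link between them was not tested. The stroma and muscle list, with miR-206 at 0 in every sample, summed to 839 and 1035 CPM in the negative and 859 and 6247 CPM in the positive samples. The sum was mostly miR-143-3p, with 5666, 3667, 691 and 954 reads, whereas miR-145-5p was lower without overlap in the positive samples (-1.22 ± 0.57, SE). The neural list, with 2 of 3 tested, was lower in the positive samples, at 861 and 557 CPM against 1366 and 1189 CPM. miRNA names that may belong to fragments of other noncoding RNA had a median log2 difference of 1.08 over 8 tested, and were led by miR-1260b (0.96 ± 0.51, SE), miR-1260a (1.19 ± 0.48), miR-1246 (4.88 ± 0.65) and miR-3607-3p (2.57 ± 0.81). The part of depth, GC content and these other sources in the members' values was not tested, and depth cannot be told apart from the sorted group because both positive libraries were shallower than both negative ones.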

How the data were processed

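The authors deposited whole-number read counts of mature miRNAs for 4 combined samples of small RNA sequencing. The libraries were of the TruSeq Small RNA type and were pooled before gel size selection, per the labels' protocols. A normalized signal of the same counts was also deposited; in each column it equalled the raw count divided by 1 size factor, and it served no other purpose. CASAVA 1.8.2, cutadapt 1.10, Bowtie 0.12.9, DESeq2 and GRCh38 are named, per the submitters' processing notes. What each did, the mismatches allowed and how multiply mapped reads were counted is not given in the sources used.

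Counts were fitted with edgeR 4.0.16 in R 4.3.3 (TMM, filterByExpr with minimum count 10 and minimum total count 15, glmQLFit, glmQLFTest, Benjamini-Hochberg adjustment over 570 miRNAs). The fit was also run on simulated counts. Their spread was set to a fixed value and not to that of these data, so the fit was not checked at this spread. The SE is the absolute log2 difference divided by the square root of F. Alternatives were other scalings, filters and tools (DESeq2 1.42.0, limma 3.58.1), a replicate block, leaving out each sample, a lowess curve on GC content and another pseudocount. Log2 CPM for likeness used a prior count of 2. Intervals are at the 95% level, and PCR reads are not independent molecules.

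The 4 members and all lists were chosen with earlier results of these data known. Named besides the members were both arms of miR-3184, entries sharing a seed, the 5 closest miRNAs by pattern, the 4 most abundant of each list and the 3 largest arm shifts each way; the closest were named only for miR-423-5p and miR-3605-3p. Of the 2026 entries 8 join several names with an equals sign and were kept as deposited. The intron and exon positions, the ratios of raw reads to depth, the GC groups, the count of hairpins whose more abundant arm differed, and DESeq2 on the edgeR-filtered table were added after seeing the data.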

Additional observations from a re-analysis of the deposited data

How the results depend on the processing

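The log2 difference stayed positive in all 14 alternatives for each of the 4 members, and the arm ratio kept its sign in all 5 for both hairpins. With upper quartile scaling miR-423-3p was at 1.799 and miR-3605-3p at 4.50, and with total count scaling at 1.68 and 4.45. These scalings moved the median of all tested miRNAs by 0.34 and 0.31. With no filter the same arms were at 1.09 and 3.76, and with the 10 CPM filter at 1.69 and 4.40. Over the 1510 and 419 miRNAs then tested, the median moved by -1.25 and 0.18. DESeq2 gave miR-3605-3p 3.99, and the GC curve left 0.767 for miR-423-3p and 3.90 for miR-3605-3p. Leaving out 1 sample, miR-423-5p ran from 2.79 to 4.25, miR-423-3p from 1.21 to 1.83, miR-3605-3p from 4.14 to 4.39, miR-3605-5p from 0.156 to 2.24, and the arm ratios from 0.958 to 3.02 (miR-423) and from -3.81 to -2.13 (miR-3605). The count of miRNAs called, 0 with edgeR, was 48 with total count scaling, 77 with no filter, 51 with DESeq2 and its own filter, 4 with limma-voom and 26 to 55 with 1 sample left out; the cause was not tested. DESeq2 was first run on the table after the edgeR filter, where it called 75; that setting was replaced after the results were seen and is listed as an added alternative. With the replicate number as a block it was 228, and samples of the same number deviated together at a correlation of 0.375 across miRNAs, but the labels state no pairing; the members' values with the block were 3.47, 1.48, 4.18 and 1.11 in the order miR-423-5p, miR-423-3p, miR-3605-3p and miR-3605-5p. Depth limits miR-3605 most, at 5 reads of the 5p arm in the shallowest library.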
